A study of Mus musculus with 27 samples.

Results

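The clustered histone genes are the replication-dependent histone genes of the mouse, which lie in tight groups on a few chromosomes. They were taken as every gene in the 3 deposited count tables whose symbol starts with Hist1h, Hist2h, Hist3h or Hist4h, which gave 67 of the 27080 genes listed. By type they are 6 genes for the linker histone H1, 18 for H2A, 19 for H2B, 11 for H3 and 13 for H4. The RNA-seq libraries were prepared from mESCs of the J1 line to ask how depletion of Gas41 and differentiation into embryoid bodies (EBs) alter gene expression. Gas41, listed as Yeats4, encodes a YEATS domain protein of chromatin remodeling complexes. Lentivirus brought in either shNT, an shRNA without a target that served as control (3 libraries), or 1 of 2 shRNAs against Gas41, shGas41-1 (3 libraries) and shGas41-2 (2 libraries). After infection the cells were selected with puromycin, and the knockdown (KD) cells were harvested 8 days after infection. Control shRNA cells were kept undifferentiated with LIF (EB day 0, 2 libraries) or formed EBs without LIF for 6 days (EB day 6, 2 libraries). The study's methods call its repeats biological in general terms, without saying how these libraries were separated, and p-values measure the spread between these samples.

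A pair each of H2A, H2B, H3 and H4 form the core of the nucleosome, and H1 binds the DNA between nucleosomes. The clustered genes supply these proteins in bulk while DNA is copied in S phase, and most of them have no intron. Their mRNAs normally end in a conserved stem-loop bound by the stem-loop binding protein Slbp, in place of a poly(A) tail. In contrast, replication-independent histone genes such as H2afz and H3f3b give polyadenylated mRNAs and are used throughout the cell cycle. The libraries were made with a TruSeq kit that captures RNA by its poly(A) tail, so the values of the clustered genes are levels of the histone RNA that this capture recovered.

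The libraries held between 59224537 and 81524773 counts. Levels are given as CPM (counts scaled to library size and, over all 12 libraries, by the TMM method), and 3 counts, taken as the floor of detection, were worth between 0.0373 and 0.0493 CPM. This floor covers counting error only. Replicate 3 of shGas41-1 stood apart. In a chi-square comparison of counts over genes with at least 10 counts in the 2 libraries together, it differed from the other 2 libraries of its group by 134 and 219 per degree of freedom, where other replicates of a group differed by 27.3 to 75.9. The calls of the clustered histone genes with shGas41-1, and the median over all of them, are therefore also given without it. Values of the other genes and gene lists with shGas41-1 include it. Yeats4 was measured at 61.2, 53.2 and 50.9 CPM in the shNT libraries, at 3.46, 4.38 and 5.10 CPM with shGas41-1, and at 8.80 and 7.95 CPM with shGas41-2, so every KD library matched its label. The study speculates that KD cells lie partway from the undifferentiated to the differentiated state. Pou5f1, which encodes the pluripotency factor Oct4, lay between 988 and 1554 CPM in the 10 shNT, KD and EB day 0 libraries. At EB day 6 it was a little lower, at 924 and 804 CPM. The study, in contrast, reports that Oct4 was quickly shut off in its own EB assays. Nanog, another pluripotency gene, lay between 674 and 940 CPM in the same 10 libraries and had 364 and 261 CPM at EB day 6. In a list of 8 pluripotency genes, 7 fell by 2-fold or more from EB day 0 to EB day 6 (FDR up to 0.05, edgeR). Their median change was −2.85 in log2 over all 8. Summed, the 8 genes had 5247 and 5673 CPM at EB day 0 and 1693 and 1367 CPM at EB day 6. Fgf5 and T, markers of the epiblast and of early mesoderm, were at most 0.684 and 0.570 CPM in the 10 shNT, KD and EB day 0 libraries. They reached 195 and 218 CPM and 415 and 519 CPM at EB day 6. The counts are from bulk RNA, in which fewer cells of a type and less RNA per cell cannot be told apart.

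On mm9, 55 of the 67 genes lie on chromosome 13 between positions 21807632 and 24026720, and Hist1h2al lies apart from them on the same chromosome (chr13:51298057-51298434, minus strand). A group of 7 Hist2 genes lies on chromosome 3, 3 Hist3 genes lie on chromosome 11, and Hist4h4 lies on chromosome 6. The annotation gives a stop codon for 64 of the genes. Within 150 bases after the stop codon, on the strand of the gene, the most common 16-base stretch whose ends pair over 6 bases was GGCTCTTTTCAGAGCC, which 36 of these 64 genes held exactly and 59 with at most 3 mismatches. Of the other protein-coding genes, 0.183% held such a match. The stem-loops shown here are those of the genes with the most RNA in each type and of genes that changed, chosen to show where the element differs. The 16 bases of the element are in capitals, and 5 bases of the NCBIM37 (mm9) genome are given on each side, 5′ to 3′ on the gene's strand.
Hist1h1c (H1, chr13:23831376-23831401, +): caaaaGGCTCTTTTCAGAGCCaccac
Hist1h2ae (H2A, chr13:23662532-23662557, −): acaaaGGCTCTTTTCAGAGCCattca
Hist1h2bc (H2B, chr13:23776511-23776536, +): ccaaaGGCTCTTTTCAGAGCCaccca
Hist1h2bl (H2B, chr13:21807582-21807607, −): tcaaaGGCTCTTTTAAGAGCCaccca
Hist1h2ba (H2B, chr13:24025594-24025619, −): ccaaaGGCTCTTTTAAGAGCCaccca
Hist1h3g (H3, chr13:23627753-23627778, +): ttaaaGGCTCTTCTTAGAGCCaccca
Hist1h4i (H4, chr13:22132830-22132855, −): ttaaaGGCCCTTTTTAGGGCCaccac
Hist1h4h (H4, chr13:23623322-23623347, +): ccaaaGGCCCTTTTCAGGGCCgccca
Hist1h4n (H4, chr13:21923662-21923687, −): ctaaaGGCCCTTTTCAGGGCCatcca

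The 36 exact copies were spread over the H1, H2A, H2B and H3 genes. A form with an A in the loop, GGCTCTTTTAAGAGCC, stood in 9 genes, among them Hist1h2bl and Hist1h2ba. All 11 matched H4 genes had a stem of their own that starts with GGCC and ends with GGCC, most often as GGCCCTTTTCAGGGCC (8 genes). Hist1h2al, Hist2h2bb, Hist2h2be, Hist1h4b and Hist1h4j had a stop codon and no match in this window. The common H4 form already holds 2 mismatches to the searched element, so the search left H4 genes less room for further differences. Hist1h2aj, Hist2h3c2 and Hist3h2bb-ps are annotated as pseudogenes and were not searched.

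The copies are alike in more than the stem-loop. Of all 50-base stretches in a gene's exons, a median of 67% also occurred in another gene for H2A, 49.7% for H2B, 49.5% for H3, 43.6% for H4 and 2.15% for H1. The exons of Hist1h2ao and Hist1h2ap are identical, as are those of Hist1h2bq and Hist1h2br. The counts of each of these pairs differed by at most 1.2% and 2.2% in any library, so the tables gave both copies nearly the same count. Reads of near-identical copies cannot be assigned to 1 gene, and a sum over a type may hold a read more than once. The 12 genes with under 20% of shared stretches are the ones whose values belong most clearly to 1 gene, among them Hist1h1c, Hist1h1d, Hist1h1t, Hist1h2be, Hist2h2be and Hist2h2bb.

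All clustered histone genes together had 296 ± 55.1 CPM in shNT (SD, n = 3), 335 ± 27.9 with shGas41-1 (n = 3), 328 ± 10.5 with shGas41-2 (n = 2), 284 ± 31.0 at EB day 0 (n = 2) and 162 ± 30.3 at EB day 6 (n = 2). By comparison, the replication-independent gene H2afz alone had 1154 to 1360 CPM in shNT. Per kilobase of exon, the gene with the highest level over the 12 libraries was Hist1h2bc, at 38.3 CPM per kilobase. It was followed by the annotated H2A pseudogene Hist1h2aj (24.8) and the H2A gene Hist1h2an (22.0). Of the stretches of these 2, 92.5% and 85.8% also occur in another gene, so their levels may hold reads of other copies. Hist1h2bc was the highest in the shNT, KD and EB day 0 groups, with means from 42.8 to 50.6, but not at EB day 6, where it had 6.54 and Hist1h2aj 19.7. The ranges of Hist1h2aj (18.0 to 31.3 CPM per kilobase) and Hist1h2an (15.1 to 27.6) overlapped, so their order is not settled. In the other types the highest levels per kilobase over the 12 libraries were those of Hist1h4i (12.6), Hist1h1c (8.05) and Hist1h3g (7.02). At the other end, Hist1h2aa, a testis gene for H2A, had 3 counts in all 12 libraries and Hist2h2ab had 7.

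**Figure D1:**
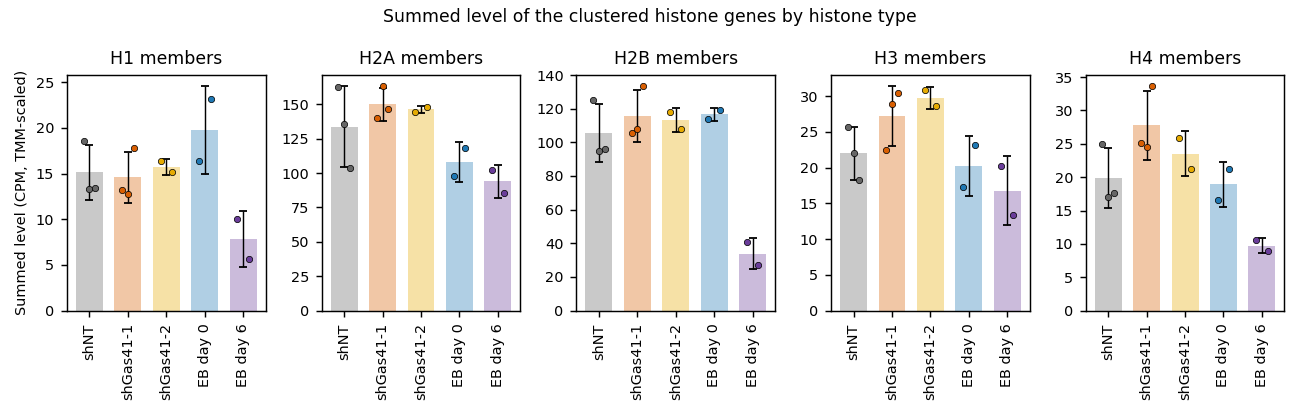
Summed level of the clustered histone genes of each type in CPM (linear axes that start at 0 and differ between types), for each of 12 libraries (points) with the group mean (bars) and SD (error bars). The 2 EB day 6 libraries lie below the 2 EB day 0 libraries for H1, H2B and H4, with the widest gap for H2B (27.2 and 40.5 against 114 and 119 CPM).

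At EB day 6 many clustered histone genes fell relative to undifferentiated cells, most often those for H2B. Of the 67 genes, 64 passed the filter on low counts in this comparison. Of these, 26 were downregulated and 0 upregulated, called by edgeR's quasi-likelihood test at an FDR up to 0.05 with at least a 2-fold difference. Over all genes tested, 14.7% were downregulated and 16.6% upregulated. The median log2 fold change was −0.75 over the 64 genes and 0.00 over all genes. By type, 14 of 19 H2B genes were downregulated, against 2 of 16 for H2A, 3 of 11 for H3, 4 of 12 for H4 and 3 of 6 for H1. Many genes of a type share sequence, so these are not counts of independent genes. With any fold change, 29 genes were lower and 1, Hist1h3c, was higher at an FDR of 0.05 or less, where all genes gave 28.4% and 30.5%. In 36 of the 64 genes both day 6 libraries lay below both day 0 libraries, as they did in 40% of all genes, and in 2 genes above them, as in 42.5% of all genes. Of the 64 genes, 54 had a log2 fold change below 0, where 50.1% of all genes did. The comparison rests on 2 libraries a group, and without EB day 0 replicate 3 the count fell to 9 downregulated genes of 63, while the share over all genes fell to 8.81%. With each other library left out the count was 23, 25 or 30. The 9 genes that stayed called in all 9 alternative fits were Hist1h2al, Hist1h2bc, Hist1h2be, Hist1h2bg, Hist2h2be, Hist1h3g, Hist2h3c1, Hist2h3c2 and Hist1h4i.

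**Figure D2:**
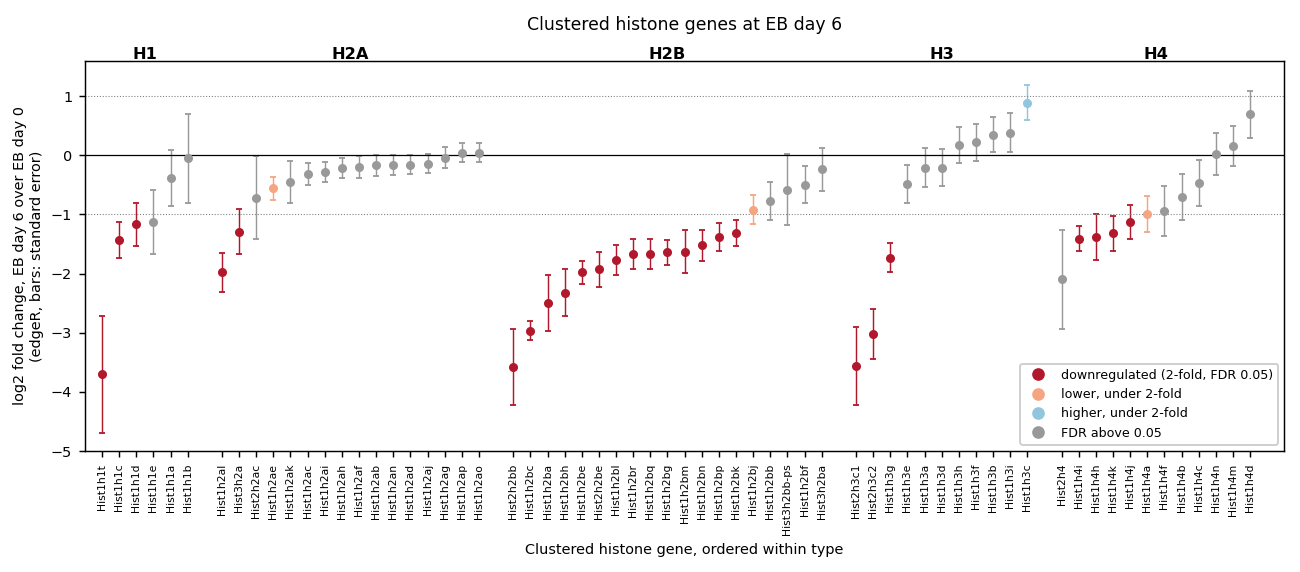
Log2 fold change of EB day 6 over EB day 0 for the 64 tested genes (points, edgeR), with the standard error (bars), ordered within each histone type and coloured by the result of the test. Dotted lines mark a fold change of 2. All 19 H2B genes lie below 0, while most H2A genes lie close to 0.

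Hist1h2bc, the H2B gene with the highest level per kilobase at day 0, had 35.8 and 38.8 CPM at EB day 0 and 5.49 and 4.14 CPM at EB day 6, which left 12.7% of the day 0 level (log2 fold change −2.97, standard error 0.16, FDR = 2.83e-05, edgeR). The groups were far apart, and the call held in all 9 alternative fits, between −2.77 and −3.19. In shNT and KD cells the gene lay between 27.3 and 38.3 CPM, so the day 6 libraries were the lowest of all 12. Its annotated transcript runs up to 313 bases past the stem-loop shown above. Of its 50-base exon stretches, 50.8% also occur in another gene and 40.1% in Hist1h2bg, so its counts and those of other H2B genes may hold the same reads.

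The other downregulated H2B genes outside the Hist2 site kept between 17.7% and 40.1% of their day 0 level. Hist1h2be, which shares 16.8% of its stretches and overlaps Gm11398, had 5.93 and 5.91 CPM at day 0 and 1.66 and 1.39 CPM at day 6 (log2 fold change −1.98, standard error 0.20, FDR = 3.32e-04). Hist2h2be, a Hist2 gene with no shared stretch, had 1.67 and 1.80 CPM at day 0 and 0.469 and 0.457 CPM at day 6 (−1.93, standard error 0.29, FDR = 0.00156). Neither gene had overlapping groups, and both calls held in all alternative fits. Hist1h2ba, which encodes the testis form of H2B, had 2.01 and 1.99 CPM at day 0 and 0.529 and 0.183 CPM at day 6 (−2.50, standard error 0.47, FDR = 0.0042). Hist1h2bh fell from 3.47 and 3.77 CPM to 1.03 and 0.441 CPM (−2.32, FDR = 0.00275), and Hist1h2bl from 6.87 and 7.18 CPM to 2.54 and 1.64 CPM (−1.77, FDR = 0.00122). For these last 3 genes the 2 groups did not overlap, but the call was lost without EB day 0 replicate 3. The identical genes Hist1h2bq and Hist1h2br both had a log2 fold change of −1.67, which is 1 measurement and not 2, and lost the call without the same library (FDR = 0.0645 and 0.0653). Hist2h2bb had 27 and 26 counts at day 0 and 1 and 3 counts at day 6 (FDR = 0.00344, and 0.0563 without EB day 0 replicate 3). The other 5 downregulated H2B genes had log2 fold changes between −1.64 and −1.32. Hist1h2ba, Hist1h2bh and Hist1h2bl share 38.2%, 59.2% and 82.8% of their stretches with another gene. The falls of such H2B genes are therefore not independent of each other.

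**Figure D3:**
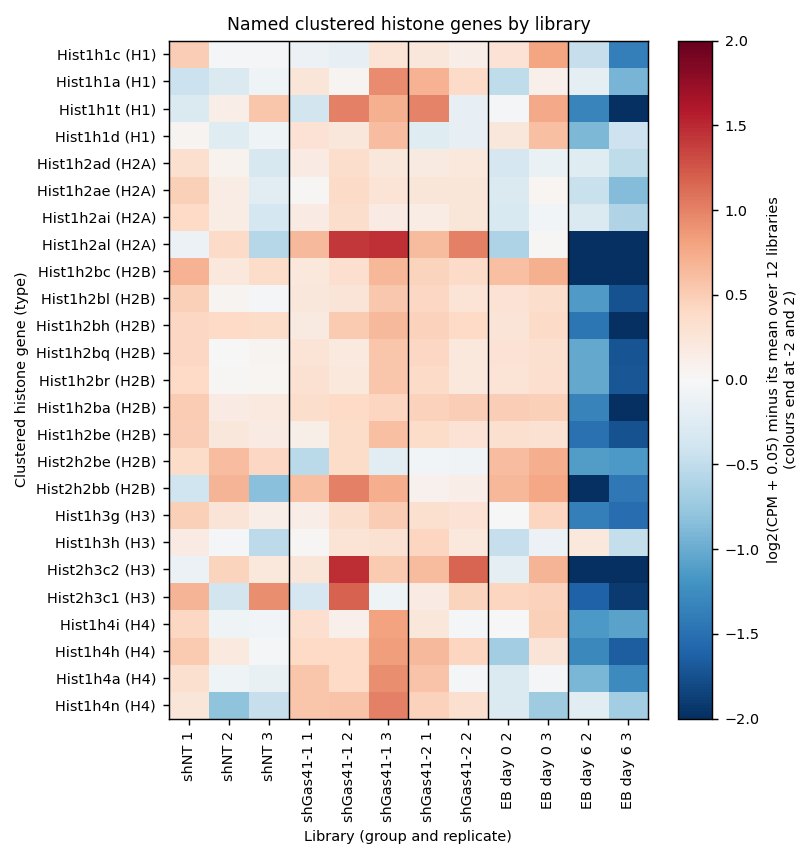
Level of the 25 named clustered histone genes in each of 12 libraries, as log2(CPM + 0.05) minus the gene's mean over the libraries, grouped by histone type. The EB day 6 libraries (right) are below the gene's mean for the H1 and H2B genes shown, and Hist1h2al is highest in shGas41-1 replicates 2 and 3.

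Few H2A genes passed the test at EB day 6. The 13 tested H2A genes of the chromosome 13 cluster had log2 fold changes between −0.56 and 0.04, with a median of −0.17 and standard errors of at most 0.35. Hist1h2ae had 10.3 and 12.9 CPM at day 0 and 9.14 and 6.82 CPM at day 6 (−0.56, standard error 0.20, FDR = 0.047), a fall of less than 2-fold. Hist1h2ai had 9.28 and 11.1 CPM against 9.44 and 7.59 CPM (−0.28, standard error 0.17, FDR = 0.208), with overlapping groups. Hist1h2ad had 8.74 and 10.0 CPM against 9.30 and 7.72 CPM (−0.16, standard error 0.16, FDR = 0.427), and its groups also overlapped. Because these genes share reads, their similar values are not independent of each other.

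The 2 downregulated H2A genes lay outside that cluster. Hist1h2al, at its separate site on chromosome 13, had 1.77 and 2.80 CPM at day 0 and 0.605 and 0.563 CPM at day 6 (log2 fold change −1.98, standard error 0.33, FDR = 0.00252). Of its 50-base exon stretches, 69.6% also occur in the Hist2 gene Hist2h2aa1, which is not among the genes listed, so its counts may include reads of that gene. Hist3h2a had 1.13 and 2.14 CPM at day 0 and 0.711 and 0.639 CPM at day 6 (−1.29, standard error 0.38, FDR = 0.0262), and lost the call without EB day 0 replicate 3 (−0.76, FDR = 0.152). Its annotated exons overlap those of Trim17, with which 34% of its stretches are shared.

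Many H2A and H2B genes are arranged head to head, with their transcripts leading away from a short region between them. There were 13 such H2A and H2B pairs with at most 500 bases between the starts, and these distances ran from 167 to 305 bases. Both genes were tested at day 6 in 12 pairs, and the H2B gene had the lower log2 fold change in 11 of them. The pairs Hist1h2ao with Hist1h2bq and Hist1h2ap with Hist1h2br consist of identical copies, so they are 1 measurement counted as 2 pairs in these numbers. Across all 13 pairs, 10 H2B genes and 1 H2A gene were downregulated. Hist1h2ac and Hist1h2bc start 250 bases apart, and the H2A gene had a log2 fold change of −0.32 (standard error 0.19) beside −2.97 (standard error 0.16) for the H2B gene. In Hist1h2ai and Hist1h2bl, 268 bases apart, the values were −0.28 and −1.77. The 1 pair in the other direction was Hist3h2a (−1.29) and the pseudogene Hist3h2bb-ps (−0.58, standard error 0.60). The difference within a pair was not tested, and the shared sequence of the H2A and H2B genes holds for these values too.

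**Figure D4:**
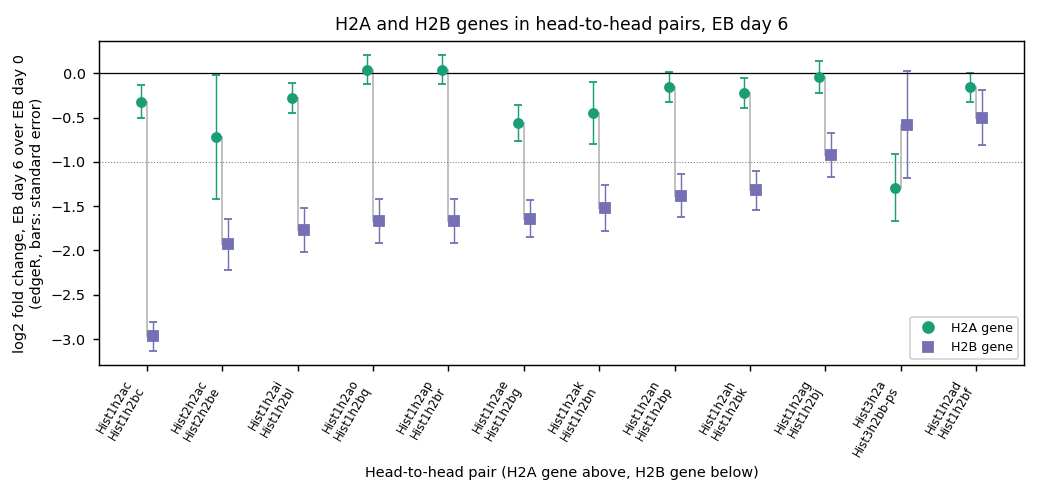
Log2 fold change of EB day 6 over EB day 0 for the H2A gene (circles) and the H2B gene (squares) of 12 head-to-head pairs (edgeR, bars are standard errors), ordered by the H2B value. The square lies below the circle in 11 pairs, by most in Hist1h2ac and Hist1h2bc.

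Among the H3 genes, those of the chromosome 13 cluster scattered around 0, with a median log2 fold change of 0.17 over 9 genes, and 1 of the 9 was downregulated. This was Hist1h3g, with 2 mismatches in its stem-loop. It had the highest level per kilobase of the H3 genes at day 0 but not at day 6, where it had 2.32 CPM per kilobase and Hist1h3h 5.22. In CPM it had 3.40 and 4.65 CPM at day 0 and 1.30 and 1.16 CPM at day 6 (−1.73, standard error 0.25, FDR = 0.00147). Hist1h3h had 1.97 and 2.50 CPM against 3.16 and 1.93 CPM (0.17, standard error 0.30, FDR = 0.655), so its groups overlapped. Hist1h3c, the gene that was higher, had 1.27 and 1.26 CPM against 2.92 and 1.84 CPM (0.89, standard error 0.30, FDR = 0.0405). Both tested Hist2 genes for H3 were downregulated. The pseudogene Hist2h3c2 had 1.79 and 3.35 CPM at day 0 and 0.378 and 0.259 CPM at day 6 (−3.02, standard error 0.42, FDR = 0.00123). Hist2h3c1, with which it shares 64.1% of its stretches, had 21 and 19 counts at day 0 and 2 and 1 counts at day 6, or 8.03% of the day 0 level (95% exact interval for counting error, 1.59% to 25.2%). With the H2A and H2B genes of the same site, 4 of the 6 tested Hist2 genes were downregulated, with a median log2 fold change of −2.56 over the 6.

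The H4 genes had a median log2 fold change of −0.96 over 12 tested genes, and 4 were downregulated. Hist1h4i had 6.40 and 8.89 CPM at day 0 and 2.83 and 3.01 CPM at day 6 (−1.41, standard error 0.21, FDR = 0.00173), and the call held in all alternative fits. Hist1h4h had 1.38 and 2.70 CPM against 0.892 and 0.685 CPM (−1.38, standard error 0.39, FDR = 0.0217), and lost the call without EB day 0 replicate 3 (−0.83, FDR = 0.154). Hist1h4a had 1.41 and 1.68 CPM against 0.892 and 0.685 CPM (−0.99, standard error 0.30, FDR = 0.027), a fall just under 2-fold. In all 3 genes the day 6 libraries were below those of day 0. Hist1h4n, in contrast, had 0.830 and 0.606 CPM against 0.877 and 0.609 CPM (0.02, standard error 0.36, FDR = 0.958).

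Among the linker histone genes, which share few stretches, 3 of 6 were downregulated. Hist1h1c had 14.5 and 20.5 CPM at day 0 and 8.59 and 4.57 CPM at day 6 (−1.43, standard error 0.31, FDR = 0.00814). The groups did not overlap, but the call was lost without EB day 0 replicate 3 (FDR = 0.151). Hist1h1d had 0.817 and 1.08 CPM against 0.348 and 0.502 CPM (−1.17, standard error 0.37, FDR = 0.0316). The call was lost in DESeq2 (FDR = 0.0695) and without EB day 0 replicate 2, day 0 replicate 3 or day 6 replicate 2 (FDR = 0.0757, 0.167 and 0.109). Hist1h1a had 0.402 and 0.636 CPM against 0.514 and 0.289 CPM (−0.38, standard error 0.47, FDR = 0.509), with overlapping groups. Hist1h1t, the linker histone gene of the testis, had 11 and 19 counts at day 0 and 2 and 0 counts at day 6, which is 7.14% of the day 0 level (95% exact interval for counting error, 0.827% to 28.1%). Its call was lost without EB day 0 replicate 2 or EB day 6 replicate 3 (FDR = 0.0512 and 0.0656).

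The calls were also counted by shared sequence and by transcript end, beside 14.7% downregulated over all genes tested. Among genes with under 20% of shared stretches, 6 of 10 tested were downregulated, with a median log2 fold change of −1.68, and among the rest 20 of 54 were, with a median of −0.65. The annotated transcripts of 21 genes run over 100 bases past the stem-loop, and 10 of these end with the poly(A) signal AATAAA in their last 50 bases. Of the 38 genes whose transcripts end within 100 bases of the stem-loop, 0 do so. At day 6, 12 of the 21 genes with the longer ends were downregulated (median log2 fold change −1.38), and 9 of the 35 tested genes with the shorter ends (median −0.38). These shares describe the genes and were not tested, since copies share reads. The sets with longer and shorter ends also differ in their mix of histone types.

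Of 16 genes for histone transcription and mRNA processing, 1 was downregulated and 0 upregulated at day 6, where 14.7% and 16.6% of all genes were. The 16 genes had a median log2 fold change of −0.04. With any fold change 6 of the 16 were lower and 3 higher, beside 28.4% and 30.5% of all genes. Slbp had 126 and 126 CPM at day 0 and 130 and 133 CPM at day 6 (0.05, standard error 0.07, FDR = 0.615). Npat, a coactivator of histone gene transcription, and Casp8ap2, which acts with it, had log2 fold changes of −0.02 and −0.04 (standard errors 0.08 and 0.09). Lsm11, a subunit of the U7 particle that cleaves histone pre-mRNA, was higher by less than 2-fold (0.50, standard error 0.12, FDR = 0.0112). The downregulated gene was Zfp473, which encodes a zinc finger protein of the U7 pathway and is named here after its values were seen. It had 58.7 ± 0.422 CPM at day 0 and 20.3 ± 0.676 CPM at day 6 (−1.55, standard error 0.08, FDR = 2.61e-05).

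Of 23 S phase genes, 0 passed the 2-fold test in either direction, where 14.7% of all genes were downregulated and 16.6% upregulated. With any fold change 12 of the 23 were lower and 4 higher, beside 28.4% and 30.5% of all genes. The median log2 fold change was −0.25, with 14 genes below 0 and 9 above. Pcna, the sliding clamp of DNA replication, had a log2 fold change of −0.03 (standard error 0.08), and Mki67, which marks proliferating cells, 0.18 (standard error 0.16). Of 11 replication-independent histone genes, 1 was downregulated. H2afz (−0.30, FDR = 0.0168) and H2afx (−0.31, FDR = 0.0197) were lower by less than 2-fold, while H3f3a (0.65, FDR = 0.00361) and the linker histone gene H1f0 (0.93, FDR = 0.00608) were higher. For H2afv, H3f3b and Cenpa the log2 fold changes were 0.03, 0.03 and 0.12, with standard errors of at most 0.11. Of 13 histone chaperone genes 0 passed the 2-fold test, and Asf1b, a chaperone of H3 and H4, came closest with 60.6 ± 3.93 CPM at day 0 and 30.9 ± 2.76 CPM at day 6 (−0.99, standard error 0.10, FDR = 2.74e-04). Nasp, a chaperone of H1 and of H3 and H4, had a log2 fold change of 0.06 (standard error 0.08). RNAs that normally carry no poly(A) tail, taken from 62 small RNA genes of which 22 were tested, had a median log2 fold change of −0.41, with 2 downregulated. Their part in the fall of the histone genes was not tested.

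With shGas41-1, few clustered histone genes changed, and those that did were higher than in shNT. Of the 64 genes tested, 2 were upregulated and 0 downregulated, where 7.9% and 2.4% of all genes were. The upregulated genes were Hist1h2al and Hist1h4n. With any fold change a further gene, Hist1h2ak, was higher, against 10.8% of all genes, and 0 were lower, against 7.73%. Without shGas41-1 replicate 3, 1 of 64 genes was upregulated, where 1376 of all 18676 genes were. With shGas41-2, 0 of 64 genes were upregulated or downregulated by edgeR, where 3.96% and 0.869% of all genes were. At an unadjusted p under 0.05 in edgeR there were 8 of the 64 genes, beside 5209 of all 18405. DESeq2 called 0 of the histone genes by 2-fold or more, where it called 751 of all 25216 genes up and 196 down. With any fold change 0 were higher and 0 lower by edgeR, where 5.94% and 3.97% of all genes were, while DESeq2 called 3 higher. Without shNT replicate 1 edgeR called 9 higher at any fold change. It called 2 of them by 2-fold or more, where 1174 of all 18327 genes were. Both KDs were compared with the same 3 shNT libraries.

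Hist1h2al had 2.52, 3.60 and 1.82 CPM in shNT. It rose to 4.33, 7.42 and 7.66 CPM in the shGas41-1 libraries (a log2 fold change of 1.31, with a standard error of 0.31 and FDR = 0.0215). Each shGas41-1 library was above each shNT library. With shGas41-2 it had 4.30 and 5.60 CPM, again above all shNT libraries (0.91, standard error 0.28, FDR = 0.077). The call with shGas41-1 was lost without shNT replicate 3 (log2 fold change 1.08, FDR = 0.0692), and held without shGas41-1 replicate 3 (1.16, FDR = 0.0393). Hist2h2ac, a Hist2 gene that also shares stretches with Hist2h2aa1, had log2 fold changes of 0.82 and 0.31 in the same order and passed neither test.

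Hist1h4n had 1.21, 0.563 and 0.729 CPM in shNT and 1.53, 1.55 and 2.10 CPM with shGas41-1 (1.07, standard error 0.32, FDR = 0.0471). The groups did not overlap, but the call lay at the threshold and was lost with any 1 of 5 libraries left out, with log2 fold changes from 0.85 to 1.16 and an FDR of up to 0.159. One of these was shGas41-1 replicate 3 (0.90 without it, FDR = 0.0911). With shGas41-2 it had 1.42 and 1.28 CPM (0.71, standard error 0.33, FDR = 0.21). Of its stretches, 83.2% are shared with Hist1h4m, which had log2 fold changes of 0.90 (FDR = 0.0938) and 0.60 (FDR = 0.334). Hist1h2ak, an H2A gene of low level, had 0.703, 0.591 and 0.526 CPM in shNT and 1.09, 1.09 and 1.09 CPM with shGas41-1 (0.86, standard error 0.23, FDR = 0.0349). Its FDR was 0.0454, 0.124 and 0.127 without shNT replicate 1, 2 or 3. Without shGas41-1 replicate 1, 2 or 3 the FDR was 0.1, 0.0626 and 0.0512, and with the replicate number as a block 0.0958. With shGas41-2 it had 0.783 and 1.28 CPM (0.77, FDR = 0.145).

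**Figure D5:**
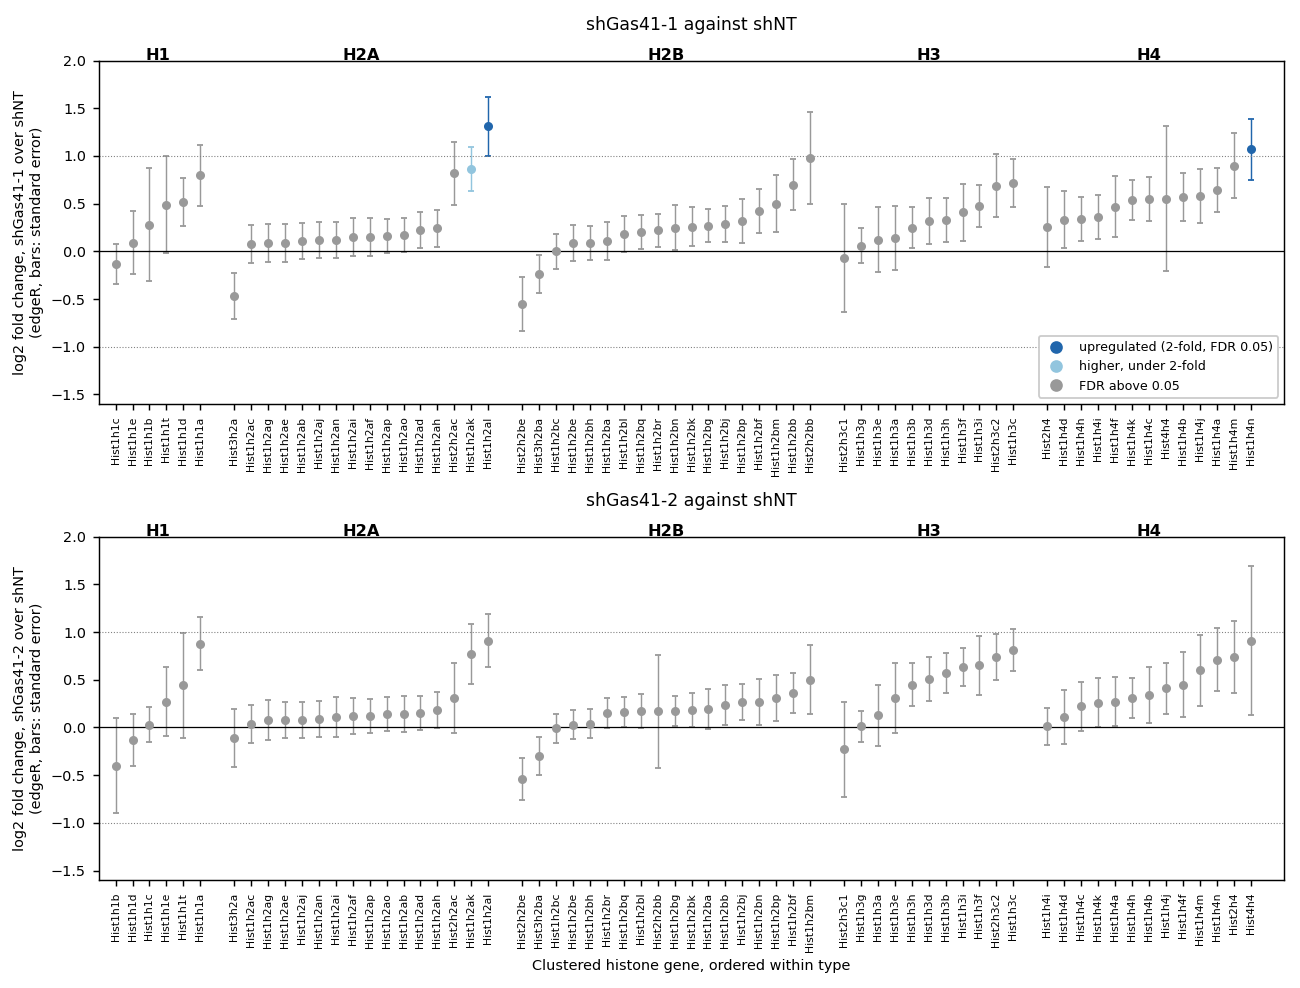
Log2 fold change over shNT of the 64 tested clustered histone genes with shGas41-1 (top) and shGas41-2 (bottom), with the standard error (bars), ordered within each histone type separately in the 2 panels. Dotted lines mark a fold change of 2. All 13 H4 genes lie above 0 in both panels, and 2 genes, both with shGas41-1, pass the test (dark blue). With shGas41-2 the H4 genes above 0 were 12 under scaling by library size alone and 10 without shGas41-2 replicate 1.

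Most of the other genes had log2 fold changes above 0 without passing the test. Of the 64 tested genes, 6 had a log2 fold change below 0 with shGas41-1 and 7 with shGas41-2, where 48.1% and 51.5% of all genes did, and the medians were 0.26 and 0.19 beside 0.02 and −0.01. Scaled to library size alone the medians were 0.18 and 0.10, and those of all genes moved by the same amount or nearly so, to −0.06 and −0.09. The counts below 0 moved with single libraries, and without shNT replicate 3 they were 18 and 22, with medians of 0.15 and 0.11. Without shNT replicate 1 they were 3 and 6. Without shGas41-1 replicate 3 the first was 11, with a median of 0.16. Without shNT replicate 2 or shGas41-2 replicate 1 the second was 11 or 15. The H4 genes had the highest median with shGas41-1 (0.55, 13 of 13 above 0) and the H3 genes with shGas41-2 (0.51, 10 of 11 above 0), while the H2A genes had 0.15 and 0.12. Without shGas41-2 replicate 1 the H3 median with shGas41-2 was 0.36, with 8 of 11 above 0. The summed H4 level was 25.0, 17.1 and 17.6 CPM in shNT and 25.1, 24.6 and 33.7 CPM with shGas41-1. The highest of these was replicate 3, without which the H4 median was 0.42, with 12 of 13 above 0, and the other 2 libraries lay at the level of shNT replicate 1. In 14 and 12 genes all KD libraries lay above all shNT libraries, as they did in 20.9% and 23.2% of all genes, and in 1 and 2 genes all lay below, as in 20.8% and 24.1%. The small RNA genes that carry no poly(A) tail had medians of 0.47 (21 tested) and 0.30 (22 tested) and 0 calls. Their sum was also highest in shGas41-1 replicate 3, at 16.9 CPM against 7.31 to 10.8 CPM in the other shNT and KD libraries, and their part in this shift was not tested.

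The genes named for their level in each type passed the test in neither KD. Hist1h2bc had 38.3, 27.4 and 30.4 CPM in shNT, 27.3, 29.8 and 37.4 CPM with shGas41-1 and 32.3 and 30.9 CPM with shGas41-2, with log2 fold changes of 0.00 (standard error 0.18) and −0.01 (standard error 0.15). Hist1h1c had 16.7, 11.6 and 11.5 CPM in shNT, 10.9, 10.6 and 14.4 CPM with shGas41-1 and 13.9 and 12.9 CPM with shGas41-2 (−0.13 and 0.03). In both genes the KD libraries overlapped the shNT libraries. Hist1h2ae (0.09 and 0.08), Hist1h2ai (0.15 and 0.11), Hist1h3g (0.06 and 0.01) and Hist1h4i (0.36 and 0.01) passed neither test, with standard errors of at most 0.23. Hist1h1a had 0.486 ± 0.0643 CPM in shNT, 0.838 ± 0.302 with shGas41-1 (0.80, FDR = 0.114) and 0.892 ± 0.146 with shGas41-2 (0.88, FDR = 0.0828). For the H2B genes that fell at EB day 6, Hist1h2be (0.09 and 0.03), Hist1h2bh (0.09 and 0.04) and Hist1h2ba (0.11 and 0.19) also passed neither test. Hist2h2be had −0.55 and −0.54 (FDR = 0.197 and 0.154).

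Compared with each other, the 2 shRNAs gave 0 called genes among the 64 by edgeR and by DESeq2. At an unadjusted p under 0.05 in edgeR there was 1 of the 64, beside 1348 of all 19146 genes. A log2 fold change below 0 was seen in 17 (45.1% of all genes). Over all 19146 genes tested the share called was also 0%, and the median log2 fold change of shGas41-1 over shGas41-2 was 0.04 for the histone genes and 0.03 for all genes. Yeats4 itself was at 4.31 ± 0.819 and 8.38 ± 0.603 CPM in this comparison and did not pass the test (FDR = 0.198).

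Of the 16 genes for histone transcription and mRNA processing, 2 were higher and 2 lower with any fold change in each KD, beside 10.8% and 7.73% of all genes with shGas41-1 and 5.94% and 3.97% with shGas41-2. Of these, 1 was downregulated by 2-fold or more in each, again Zfp473, where 2.4% and 0.869% of all genes were. Zfp473 had 54.0 ± 6.65 CPM in shNT, 22.9 ± 3.73 with shGas41-1 (−1.22, FDR = 0.00308) and 24.4 ± 2.94 with shGas41-2 (−1.14, FDR = 0.00408). Slbp was higher by less than 2-fold, at 150, 140 and 137 CPM in shNT, 191, 172 and 233 CPM with shGas41-1 (0.50, FDR = 0.0435) and 209 and 213 CPM with shGas41-2 (0.58, FDR = 0.00856). Every KD library of Slbp was above every shNT library. Sympk, which encodes a scaffold of the cleavage complex, was also higher (0.75, FDR = 0.0105, and 0.71, FDR = 0.00773) and is named after its values were seen. The other lower gene was Cpsf2, a subunit of the cleavage complex also named after its values were seen (−0.46, FDR = 0.0329, and −0.35, FDR = 0.0428). Npat (−0.14 and −0.09), Casp8ap2 (−0.27 and −0.30) and Lsm11 (−0.35 and −0.08) passed neither test.

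Among the 11 replication-independent histone genes, 1 was downregulated in each KD, where 2.4% and 0.869% of all genes were. The downregulated gene was H2afy2, a macroH2A gene named after its values were seen, which had 41.2 ± 5.98 CPM in shNT, 11.0 ± 1.68 with shGas41-1 (−1.88, FDR = 0.00184) and 18.3 ± 2.83 with shGas41-2 (−1.16, FDR = 0.00646). H2afy, the other macroH2A gene and also named after its values were seen, was lower by less than 2-fold (−0.79, FDR = 0.0155, and −0.71, FDR = 0.0394). H1f0 was lower by less than 2-fold with shGas41-1 (−0.54, FDR = 0.0284) and did not pass with shGas41-2 (−0.43, FDR = 0.117). The H2A.Z genes H2afz (0.14 and 0.19) and H2afv (−0.09 and −0.10), the H2A.X gene H2afx (−0.36 and −0.07), the H3.3 genes H3f3a (−0.04 and −0.15) and H3f3b (0.16 and 0.16) and Cenpa (0.01 and −0.07) passed neither test. Of the 13 chaperone genes, 0 passed the 2-fold test in either KD. Of all genes, 7.9% and 3.96% were upregulated and 2.4% and 0.869% downregulated. Nasp had log2 fold changes of 0.36 (FDR = 0.0536) and 0.49 (FDR = 0.0127). Of the 23 S phase genes, 17 had a log2 fold change below 0 with shGas41-1 and 16 with shGas41-2, beside 48.1% and 51.5% of all genes. The medians were −0.20 and −0.04. With any fold change 3 and 1 were lower, where 7.73% and 3.97% of all genes were. In each KD 1 was upregulated, where 7.9% and 3.96% of all genes were. The upregulated gene was Pola1, which encodes the catalytic subunit of DNA polymerase alpha and is named after its values were seen. It had 135 ± 6.13 CPM in shNT, 329 ± 80.8 with shGas41-1 (1.31, FDR = 0.0033) and 306 ± 20.4 with shGas41-2 (1.19, FDR = 0.00145). Pcna (0.15 and 0.12) and Mki67 (−0.33 and −0.43) passed neither test.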

How the data were processed

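RNA-seq of 12 libraries of J1 mESCs was analysed, and the ChIP-seq libraries were not used here. Per the study's methods and the submitters' processing notes, the authors mapped the reads to mm9 with TopHat2 (2.0.10) and assigned them to genes with htseq-count. The deposited values are raw counts per gene, whole numbers without normalization, and the strand setting and the handling of reads with several matches are not given in the sources used here. Without strand, a gene and an overlapping one on the other strand, as for Hist2h2ab and Hist1h4b, cannot be told apart. The tables also hold the authors' own log2 fold changes, p-values and FDR, which were not used. A gene missing from a table was taken as 0 counts.

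Counts were tested in R 4.3.3 with edgeR 4.0.16 (filterByExpr with a minimum count of 10 and a minimum total of 15, TMM scaling, quasi-likelihood test) and Benjamini-Hochberg adjustment over all genes tested, in 4 comparisons. Calls needed an FDR up to 0.05 and a log2 fold change of at least 1 in size, the thresholds of the study's methods. DESeq2 1.42.0, other scalings, no filter, no fold threshold, the replicate number as a block and each library left out served as alternatives. The test was also run on simulated counts, in which genes varied independently of each other, unlike copies that share reads. Stem-loops and shared 50-base stretches were found in the NCBIM37 genome with its GENCODE annotation. The genes and gene lists were chosen with earlier results of these data known. Named genes are the 3 of highest mean CPM in each type, the called ones (up to 12 per comparison, by size of change) and a set of listed histone-related genes, with exceptions said so in the text. Hist1h2ak, Hist1h3c, Hist1h4m, Hist2h2ac, Hist3h2a and the genes given for their sequence, length-scaled level or pairing are named outside this rule, after their values were seen.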

Additional observations from a re-analysis of the deposited data

How the results depend on the processing

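The 26 downregulated clustered histone genes at EB day 6 became between 9 and 30 with 1 library left out, with 9 without EB day 0 replicate 3, where 1 library stood for its group and was assumed to vary like the other group. Of the 26 calls, 9 held in all alternatives. The 0 upregulated genes became 1 with no fold threshold and between 0 and 1 with 1 library left out. With shGas41-1 the 2 upregulated genes became 1 under scaling by library size alone, 0 with the replicate block and between 0 and 3 with 1 library left out. With shGas41-2 the count of 0 became between 0 and 2 with 1 library left out, with 2 without shNT replicate 1. Without Hist1h1c the summed H1 level with shGas41-1 was 140% of shNT, against 96.5% with it. The other summed levels stayed within 1 SD and the other counts of 2-fold calls within 1.5 times, and no alternative turned the direction of a called gene. Libraries with the same replicate number had correlations of their deviations from the group means of −0.11, 0.19 and −0.60 for shGas41-1 and shNT, 0.49 and 0.41 for shGas41-2 and shNT, and 0.09 and 0.09 for the EB groups. The labels name no shared batch, so the numbers were not used as pairs. With the replicate block, the fit for EB day 6 called 27 genes down and that for shGas41-2 called 0, with 7 higher at any fold change in place of 0 and 21 genes below 0 in place of 7. The shGas41-1 calls lost under the block kept their size, with a log2 fold change of 1.31 for Hist1h2al (FDR = 0.0519) and 1.12 for Hist1h4n (FDR = 0.092). The cause of these changes was not tested. Groups of 2 or 3 libraries, shared reads between copies and counts near the floor for genes such as Hist2h2bb, Hist2h3c1 and Hist1h1t limit these values.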
